A study of Mus musculus with 18 samples.

Results

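Distal peaks that carry an interferon-stimulated response element were examined in macrophages stimulated with LPS after treatment with (+)-JQ1 or IL-10. A distal peak was counted as a member when the mm9 genome held, within 250 bp of its centre on either strand, an exact match to GAAANNGAAA, that is, a pair of GAAA half-sites in tandem with 2 bases of any kind between them. Of 157614 distal peaks, 11750 (7.45%) were members by this rule, out of 194284 peaks in all. The element was as frequent in distal windows, at 19.4 copies per 100 kb, as in the whole genome, at 19.2 copies per 100 kb, and it was present in 2237 of 36670 promoter peaks (6.10%). The rule itself reads only the sequence at each peak and no count.

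Open chromatin was profiled by ATAC-seq, an assay that reads out where a transposase can reach the DNA, in bone marrow-derived macrophages (BMDMs) from 3 male Il10-/- mice on the C57BL/6J background, 12 weeks old and grown for several days in medium conditioned by L929 cells. All groups lacked Il10, so no wild-type level was available for comparison. BMDMs were left untreated or were treated for 12 hours with 500 nM (+)-JQ1, a small molecule that blocks the bromodomains of BET proteins, or with 10 ng/mL IL-10, and PBS or 50 ng/mL LPS was then added for a further 4 hours. The 6 groups, with 3 libraries each, are called Unstimulated, JQ1, IL10, LPS, LPS_JQ1 and LPS_IL10, and the labels describe the samples as biologically matched across groups.

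The interferon-stimulated response element is bound by interferon regulatory factors (IRFs), each of which contacts a GAAA half-site. LPS sensed by TLR4 activates IRF3 through the adaptor TRIF, and the interferon beta that follows acts back on the same macrophage. Partners of the ETS family, such as PU.1, recruit IRF4 and IRF8 to composite sites in myeloid cells. BET proteins bind acetylated histones at enhancers and promoters of inducible genes, and IL-10 acts through STAT3 to restrain inflammatory genes.

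The elements of 8 members on which the results turn are printed 5′ to 3′ with 25 bases on each side, under the name of the gene concerned, with their mm9 coordinates. Capitals mark the element, which in the Il15 member runs on into another half-site in the same phase.
Rsad2, chr12:27124358-27124417, plus strand: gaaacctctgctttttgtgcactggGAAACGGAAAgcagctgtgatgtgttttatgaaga
Prkcq, chr2:11277372-11277431, plus strand: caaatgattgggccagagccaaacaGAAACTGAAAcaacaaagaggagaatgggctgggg
Gbp2, chr3:142301460-142301519, plus strand: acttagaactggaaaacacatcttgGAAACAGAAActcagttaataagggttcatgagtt
Irf7, chr7:148436785-148436844, minus strand: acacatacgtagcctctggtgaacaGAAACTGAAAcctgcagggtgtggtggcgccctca
Il15, chr8:84896775-84896834, minus strand: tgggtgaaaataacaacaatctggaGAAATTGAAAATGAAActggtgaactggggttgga
Ckap2l and Il1a, chr2:129124460-129124519, minus strand: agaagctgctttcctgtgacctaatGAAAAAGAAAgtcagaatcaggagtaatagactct
Aoah, chr13:20979133-20979192, plus strand: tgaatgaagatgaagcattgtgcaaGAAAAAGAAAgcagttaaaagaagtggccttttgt
Il4ra, chr7:132727060-132727119, minus strand: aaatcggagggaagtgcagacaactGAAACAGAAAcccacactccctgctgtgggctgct

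Most members (10524, or 89.6%) held a single copy of the element, 898 held 2 copies, 156 held 3 to 5, and 172 held 6 or more, up to 38. In 638 members at least 3 half-sites followed each other in phase, spelled GAAANNGAAANNGAAA. Single copies lay on the plus strand in 5277 members and on the minus strand in 5247. Introns held 52.4% of members, intergenic DNA 43.4% and exons 4.22%, against 53.7%, 40.6% and 5.73% of distal peaks without the element. Members were as wide as other distal peaks (median 897 bp against 906 bp), had a lower GC content around the centre (44.1% against 46.3%), and lay farther from the nearest transcription start site (17.9 kb against 15.6 kb, medians). Their median normalized count was 29.4, against 28.5 for other distal peaks.

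Total counts in peaks ranged from 12020526 to 25908198 per library. Normalization factors were 1.04 to 1.24 in the Unstimulated libraries and 0.896 to 1.05 in the other groups, with overlapping ranges, and the direction of comparisons with this group depends on scaling, so values relative to all distal peaks are given beside them. Peaks within 1 kb of the starts of the macrophage genes Csf1r, Emr1, Cd68, Itgam, Fcgr1, Lyz2 and Mertk had 222 to 1340 normalized counts in every library, Cd3e, Cd4 and Ly6g had no such peak, and the peaks at Cd3g and Cd79a reached at most 31.0. The neutrophil genes S100a8 and Elane had 115 to 691 counts and the B-cell gene Ms4a1 170 to 298, and their part in any result was not tested.

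LPS raised the accessibility of members more often than that of other distal peaks, and lowered it less often. A peak was called when its adjusted p was under 0.05 and its log2 fold change exceeded 0.5 in size, tested with edgeR over all 194230 peaks that passed the filter on low counts, among them 11746 of the 11750 members. Against Unstimulated, 2247 members (19.1%) were higher after LPS and 876 (7.46%) were lower, whereas 11.7% of all peaks tested were higher and 10.2% were lower. Distal peaks without the element were higher in 10.5% and lower in 11.3%. The median log2 fold change was 0.12 over members and -0.07 over all distal peaks. When libraries were scaled to total counts, 1507 members were higher and 1659 lower, so the share of higher calls among the called members fell from 72.0% to 47.6%, and that over all distal peaks from 50.3% to 24.8%, as this scaling moved the median of all peaks from -0.03 to -0.26. The median of members exceeded that of all distal peaks by 0.19 under both scalings.

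Peaks with half-sites at other spacings were called less often than members, and slightly more often than distal peaks without the element as a whole. The spacings compared were 0, 1, 3, 4, 5, 6, 7 or 8 bases between tandem GAAA half-sites, in distal peaks without the element. These peaks were higher after LPS in 12.1% to 13.1%, beside 11.7% of all peaks and 10.5% of all distal peaks without the element. The same spacings were lower in LPS_IL10 than in LPS in 4.34% to 5.66%, and lower in LPS_JQ1 than in LPS in 3.50% to 4.13%. All distal peaks without the element gave 4.22% and 3.45%. Members, with 2 bases between the half-sites, stood at 19.1%, 9.93% and 4.80%, above every other spacing in each comparison.

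**Figure D1:**
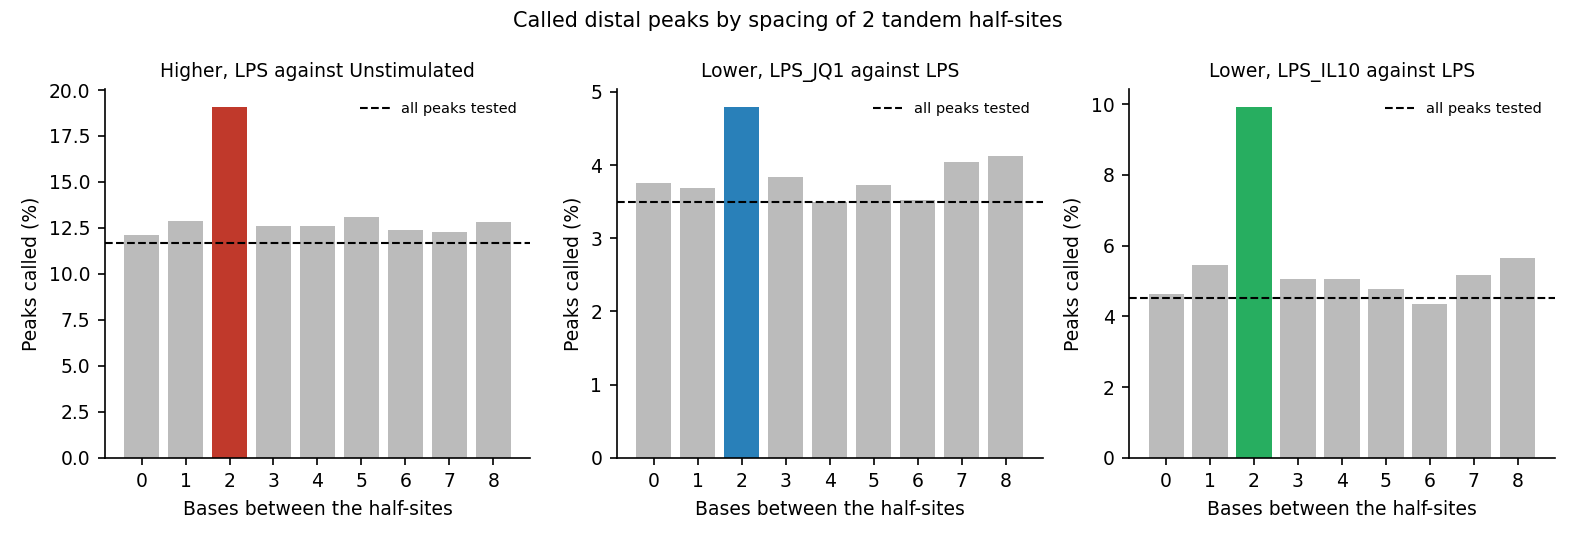
Share of distal peaks called (vertical axes, %) against the number of bases between 2 tandem GAAA half-sites (horizontal axes), for 3 comparisons; coloured bars are the members (2 bases), grey bars are peaks without the element, and dashed lines are all peaks tested. Members reached 19.1% for LPS, 4.80% for LPS_JQ1 and 9.93% for LPS_IL10, whereas the other spacings stayed at 12.1% to 13.1%, 3.50% to 4.13% and 4.34% to 5.66%.

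Members were called more often than other distal peaks at every level of signal. When distal peaks were split into 4 equal classes by mean normalized count, members were higher after LPS in 8.14% of the lowest, 12.5% of the next and 35.1% of the highest class, and distal peaks without the element in 2.63%, 4.83% and 23.7%. For LPS_IL10 against LPS the lower members made up 8.58%, 8.42%, 11.2% and 11.4% of the 4 classes, against 2.49%, 3.07%, 5.00% and 6.33% without the element. For LPS_JQ1 against LPS the classes gave 2.17%, 3.52%, 6.60% and 6.75% against 1.32%, 2.08%, 4.44% and 5.96%.

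Nearness of the element to the peak centre went with larger shares. With the nearest copy 0 to 50 bp from the centre, 22.4% of members were higher after LPS, and the share fell through 20.3%, 17.9% and 17.6% to 16.4% at 200 to 250 bp. The shares lower in LPS_IL10 than in LPS were 13.6%, 10.5%, 9.31%, 7.49% and 7.69% over the same 5 ranges. For LPS_JQ1 against LPS the first range gave 5.06% and the last 4.43%.

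The bases between and after the half-sites also separated members with a single copy. Among the 16 combinations of the 2 spacer bases, CC (36.5% of 85 members), CT (27.3% of 759), GC (17 of 63) and GT (26.3% of 632) had the largest shares higher after LPS, and CG (9.09% of 99) and AG (12.2% of 1159) the smallest. Reduction by IL-10 followed a similar order, with 17.6% for GT and for CC, 15.9% for GC and 15.2% for CT, down to 4.32% for AG. Reduction by (+)-JQ1 followed it only in part. The shares were 9.41% for CC, 8.05% for CT, 4.11% for GT and 1 of 63 for GC, beside 4.43% of all single-copy members. Grouped after these values were seen, members whose second spacer base was T or C were higher after LPS in 23.6% and lower with IL-10 in 13.9%, and those with A or G there in 15.1% and 6.38%. With a C directly after the element, spelled GAAANNGAAAC, 22.6% were higher after LPS and 12.9% lower with IL-10, and with another base there 16.1% and 7.26%. Members with T as the second spacer base and this C (627 peaks) were higher after LPS in 29.5%, lower in LPS_IL10 in 20.3% and lower in LPS_JQ1 in 7.81%. The printed Prkcq element, GAAACTGAAA followed by C, is of this last kind.

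Members with several copies responded more often, and those with 6 or more copies were called most often. Shares higher after LPS were 17.4% with 1 copy, 26.2% with 2, 29.5% with 3 to 5 and 76.2% with 6 or more. The shares lower in LPS_IL10 than in LPS were 8.41%, 13.6%, 23.7% and 70.9% over the same classes. The shares lower in LPS_JQ1 than in LPS were 4.43%, 5.90%, 5.13% and 21.5%. The study called peaks in each sample and tested their union, so a peak open only after LPS could enter through the LPS libraries. Such entry favours rises after LPS and falls with treatment, most where counts without LPS are low, as in arrays. How many members entered in this way was not tested. Members with 3 half-sites in phase but only 2 to 5 copies were higher after LPS in 29.8% and lower with IL-10 in 18.2%, and members with 2 to 5 copies of which none were in phase in 24.1% and 12.6%.

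Arrays of 6 or more copies were simple repeats of 6-base units, with GA between the half-sites in 48.3% of their copies and GG in 35.2%. Of the 172 arrays, 131 were higher and 1 was lower after LPS, with a median log2 fold change of 1.60. In LPS_IL10 against LPS 122 were lower and 0 higher, by DESeq2 110 were lower, and the median was -1.35. In LPS_JQ1 against LPS 37 were lower and 0 higher, by DESeq2 26 were lower, and the median was -0.67. The direct comparison of LPS_JQ1 with LPS_IL10 gave 20.3% of arrays higher with (+)-JQ1 and 1.16% lower, against 3.43% and 4.68% of all peaks. Their median normalized counts were 12.6 ± 2.17 (SD, n = 3) in Unstimulated, 36.5 ± 1.21 in LPS, 23.7 ± 2.64 in LPS_JQ1 and 14.3 ± 0.0827 in LPS_IL10. In mean log2 count relative to all distal peaks, arrays stayed higher in LPS_IL10 (-1.21 to -1.02) than in Unstimulated (-1.56 to -1.24). LPS and IL-10 comparisons share the LPS libraries, and these low counts limit single arrays more than the group: with a filter of at least 10 counts in every library only 43 arrays were tested, of which 30 were higher after LPS, 29 lower with IL-10 and 18 lower with (+)-JQ1.

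Repeats of GAAA at other spacings were called less often. Distal peaks without the element that held 6 or more tandem copies 0 bases apart (296 peaks) were higher after LPS in 15.2%, lower with IL-10 in 3.04% and lower with (+)-JQ1 in 2.03%. At 1, 4, 6 and 8 bases 8 of 74, 40 of 267, 9 of 66 and 37 of 248 were higher after LPS, and the shares lower with IL-10 were 1.35%, 3.00%, 0.00% and 2.82%. Runs of at least 10 GA dinucleotides without the element (2655 peaks tested) gave 12.1% and 4.22%. Of 15 promoter peaks with 6 or more copies of the element, 9 were higher after LPS and 10 lower with IL-10. These repeat classes were drawn up after the values of the arrays had been seen.

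The sequences of 2 arrays and of 1 repeat at the other spacing are printed here. The arrays were taken from those with the largest rises after LPS, and the repeat from those with the most counts. Their values are examples and do not test the contrast. Capitals mark complete half-sites, with 2 bases between them in the arrays and 0 in the Gm5464 repeat.
Trim30a array, chr7:111553215-111553294, plus strand: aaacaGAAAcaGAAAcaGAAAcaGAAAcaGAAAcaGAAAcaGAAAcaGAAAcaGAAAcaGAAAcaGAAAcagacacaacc
Ralgapa2 array, chr2:146432175-146432254, minus strand: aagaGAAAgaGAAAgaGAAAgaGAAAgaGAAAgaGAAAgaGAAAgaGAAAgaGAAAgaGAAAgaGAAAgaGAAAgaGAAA
Gm5464 repeat without the element, chr14:67491258-67491337, minus strand: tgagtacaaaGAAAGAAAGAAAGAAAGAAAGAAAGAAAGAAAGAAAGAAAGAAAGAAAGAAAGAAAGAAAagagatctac

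The Trim30a array lay 7.32 kb from the start of Trim30a, an interferon-induced TRIM protein gene, at chr7:111553203-111553727. Its normalized counts were 20.2, 12.4 and 11.4 in Unstimulated and 168, 187 and 169 in LPS, without overlap (log2 fold change 3.59, adjusted p = 1.5e-22). In LPS_JQ1 they were 78.1, 56.6 and 58.5, and in LPS_IL10 129, 77.5 and 93.5, both below every LPS library (log2 fold changes -1.46 and -0.80, adjusted p = 6.8e-08 and 0.0025). The Ralgapa2 array at chr2:146431752-146432530, 94.4 kb from its nearest start and with 19 copies, had 7.57, 14.5 and 13.4 counts in Unstimulated and 190, 135 and 132 in LPS (log2 fold change 3.65 ± 0.27 (SE), adjusted p = 7.4e-22). It fell to 92.6, 64.8 and 70.2 in LPS_JQ1 and to 69.9, 51.3 and 64.9 in LPS_IL10. The Gm5464 repeat, with 14 tandem copies at 0 bases, was among the 3 repeats of its kind with the most counts. It had 453, 618 and 634 counts in Unstimulated, 936, 841 and 890 in LPS, 934, 967 and 926 in LPS_JQ1 and 882, 835 and 769 in LPS_IL10, so LPS raised it (log2 fold change 0.64, adjusted p = 8.9e-05) and neither treatment moved it past the threshold under LPS (0.08 and -0.10, adjusted p = 0.82 and 0.71). The other 2 of these repeats, near Mmadhc and Lpcat4, were also higher after LPS (1.35 and 0.69).

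**Figure D2:**
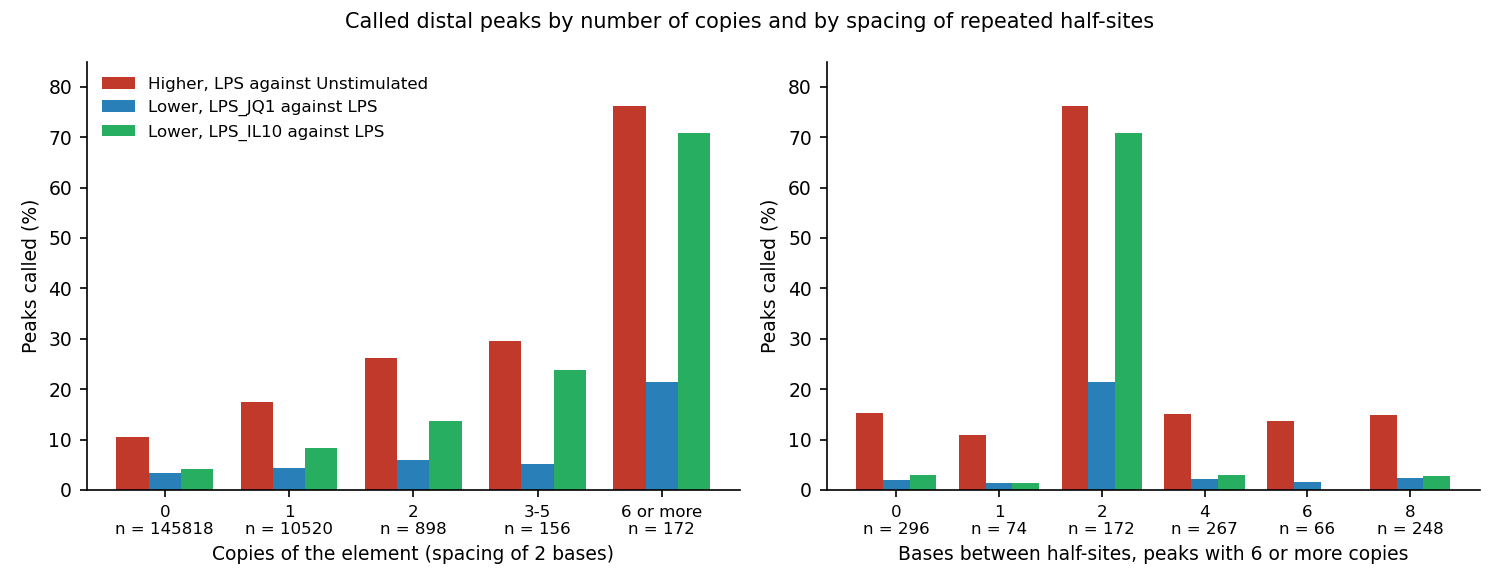
Share of distal peaks called (vertical axes, %) by number of copies of the element (left) and, for peaks with 6 or more tandem copies, by bases between the half-sites (right; 3, 5 and 7 bases had at most 4 peaks and are left out); red is higher after LPS, blue lower in LPS_JQ1 than in LPS, green lower in LPS_IL10 than in LPS, and n is the number of peaks tested. Arrays of the element reached 76.2%, 21.5% and 70.9%, whereas repeats at the other spacings stayed at or below 15.2% after LPS.

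Averaged within each library and relative to all distal peaks, members were higher in every LPS library than in every Unstimulated one. The mean log2 normalized count (with 1 added) of single-copy members, minus the mean of all distal peaks, was -0.05 ± 0.01 in Unstimulated, 0.13 ± 0.01 in LPS, 0.09 ± 0.0042 in LPS_JQ1 and 0.03 ± 0.01 in LPS_IL10 (SD, n = 3). For members with 3 half-sites in phase and 2 to 5 copies the same means were -0.28, 0.22, 0.09 and -0.10, and for arrays -1.42, 0.15, -0.39 and -1.09. The groups LPS, LPS_JQ1 and LPS_IL10 did not overlap in any of these classes. Without LPS, the arrays in JQ1 (-1.52 ± 0.07) and IL10 (-1.44 ± 0.03) overlapped those in Unstimulated (-1.42 ± 0.16).

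**Figure D3:**
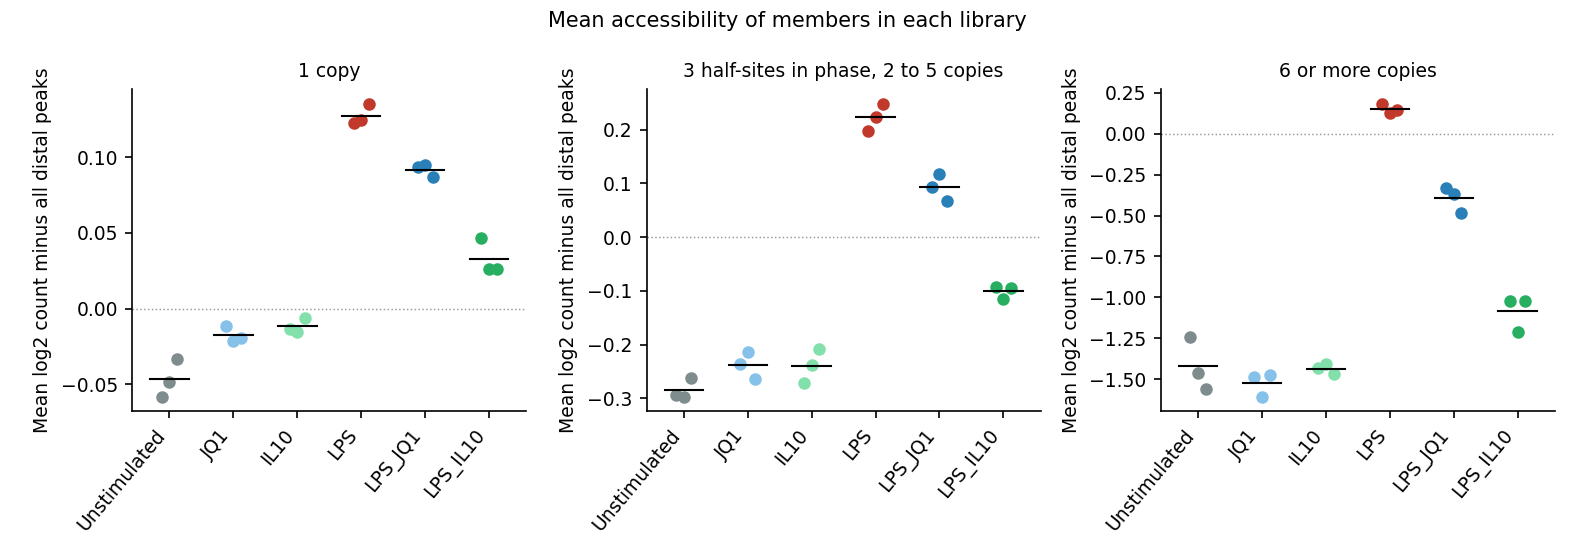
Mean log2 normalized count of members minus that of all distal peaks (vertical axes, log2 units) in each of the 18 libraries by group (horizontal axes), for 3 classes of members; points are libraries and lines are group means. In each class the LPS libraries are highest, those of LPS_IL10 lie below those of LPS_JQ1, and for arrays the means run from -1.42 in Unstimulated to 0.15 in LPS and back to -1.09 in LPS_IL10.

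The named members with the largest rises after LPS lay near genes of several kinds. A member 15.3 kb from Rsad2, which encodes the antiviral protein viperin, at chr12:27123693-27125166, had 61.8, 80.8 and 88.8 normalized counts in Unstimulated and 1280, 1010 and 1160 in LPS (log2 fold change 3.89 ± 0.17, adjusted p = 9.2e-39). It fell to 586, 637 and 523 in LPS_JQ1 and 635, 474 and 526 in LPS_IL10, which overlapped each other and lay below every LPS library. A member 37.0 kb from Mdfic rose most, from 29.0, 22.8 and 12.4 to 358, 290 and 324 (3.94 ± 0.21, adjusted p = 6.4e-31). With IL-10 it had 261, 197 and 223 counts (-0.51 ± 0.15, adjusted p = 0.019) and with (+)-JQ1 292, 248 and 183 (-0.45 ± 0.16, adjusted p = 0.072), the latter without a call. A member in an exon of Gbp5, 8.82 kb from the start of Gbp7, both genes of guanylate-binding proteins that attack intracellular pathogens, rose from 17.7, 11.4 and 17.6 to 229, 199 and 180 (3.71 ± 0.24). The remaining named rises were at chr5:16337750-16338602, 101 kb from the nearest start (3.68 ± 0.22), and 105 kb from Prkcq, the gene of protein kinase C theta (3.63 ± 0.28), besides the Ralgapa2 array.

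Falls after LPS were led by a member in an intron of Gpnmb, a glycoprotein gene of lipid-laden macrophages. Its counts were 213, 287 and 370 in Unstimulated and 31.2, 36.7 and 46.2 in LPS (-2.95 ± 0.20, adjusted p = 8.4e-25), and LPS_JQ1 had 42.0, 83.3 and 70.2, of which 1 overlapped the LPS range (0.83 ± 0.22, adjusted p = 0.011). Members 45.2 kb from Ccdc83 (-2.00 ± 0.23) and 13.4 kb from Fnip2, a partner of folliculin in nutrient sensing (-1.95 ± 0.15), followed. The Fnip2 member had 388, 389 and 430 counts in Unstimulated, 118, 74.4 and 120 in LPS and 219, 236 and 221 in LPS_IL10, so every LPS_IL10 library lay above every LPS library (1.11 ± 0.16, adjusted p = 2.8e-08).

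Under LPS, more members were lower than higher with either treatment, and more were lower with IL-10 than with (+)-JQ1. In LPS_IL10 against LPS, 1166 members (9.93%) were lower and 459 (3.91%) were higher, whereas 4.51% of all peaks were lower and 4.26% higher. In LPS_JQ1 against LPS, 564 members (4.80%) were lower and 194 (1.65%) were higher, beside 3.49% and 1.74% of all peaks, so the excess with (+)-JQ1 was small. Median log2 fold changes were -0.10 over members and 0.00 over all distal peaks for IL-10, and -0.06 and -0.02 for (+)-JQ1. Without replicate 2 the count of members lower with (+)-JQ1 was 248 and without replicate 3 it was 249, and with IL-10 it was 651 and 663.

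The direct comparison of the treatments found members on both sides. In LPS_JQ1 against LPS_IL10, 625 members (5.32%) were higher and 516 (4.39%) lower, whereas 3.43% of all peaks were higher and 4.68% lower. Scaling to total counts gave 448 higher and 648 lower, a share of 40.9% higher among the called in place of 54.8%, and the share over all distal peaks moved from 38.0% to 25.7%. The median of members exceeded that of all distal peaks by 0.07 under both scalings.

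Members lowered most by (+)-JQ1 included 3 in which the treatments differed. A member 20.9 kb from Pydc3, in the cluster of interferon-inducible pyrin-domain genes, had 27.7, 28.0 and 22.7 counts in Unstimulated, 210, 218 and 238 in LPS and 36.2, 43.2 and 21.2 in LPS_JQ1 (-2.77 ± 0.23, adjusted p = 7.1e-18). Its LPS_IL10 counts of 161, 90.6 and 108 lay between these groups (-0.88 ± 0.19), and LPS_JQ1 was lower than LPS_IL10 (-1.89 ± 0.24, adjusted p = 7.6e-10). In Aoah, the gene of acyloxyacyl hydrolase, which deacylates and inactivates LPS, 2 intronic members fell with (+)-JQ1 and were not called with IL-10 (0.11 and 0.25). The member at chr13:20978518-20979856 had 116, 120 and 123 counts in LPS, 28.9, 9.26 and 23.4 in LPS_JQ1 and 135, 130 and 124 in LPS_IL10 (LPS_JQ1 against LPS_IL10, -2.68 ± 0.27, adjusted p = 9.4e-14). The other, at chr13:21010665-21017242, had 301, 337 and 305 in LPS, 73.8, 95.7 and 86.2 in LPS_JQ1 and 423, 345 and 353 in LPS_IL10 (-2.12 ± 0.18, adjusted p = 9.5e-18). In both, every LPS_JQ1 library lay below every LPS library.

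A member 1.42 kb from Ckap2l and 11.3 kb from Il1a, the gene of interleukin 1 alpha, was lowered by both treatments. Its counts were 18.9, 14.5 and 24.8 in Unstimulated and 249, 195 and 173 in LPS, and fell to 39.1, 33.9 and 27.8 in LPS_JQ1 (-2.65 ± 0.22, adjusted p = 2.4e-17) and to 55.5, 38.2 and 48.5 in LPS_IL10 (-2.11 ± 0.21, adjusted p = 7.7e-14). The difference between the treatments was not called (-0.53 ± 0.25, adjusted p = 0.18). Rises with (+)-JQ1 under LPS were named at Hist1h4j, in a cluster of histone genes (1.62 ± 0.18), and 227 kb from Gm10260 (1.23 ± 0.21). At Hist1h4j the counts were 57.1, 51.8 and 56.3 in LPS and 152, 171 and 183 in LPS_JQ1, and (+)-JQ1 raised it without LPS as well (1.14 ± 0.17, adjusted p = 6.2e-07).

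IL-10 lowered most the intronic member of Il15, the gene of a cytokine that sustains natural killer cells, whose 3 half-sites in phase are printed above. It had 11.4, 30.0 and 39.2 counts in Unstimulated, 260, 224 and 240 in LPS, 236, 163 and 145 in LPS_JQ1 and 54.6, 44.8 and 53.7 in LPS_IL10 (-2.23 ± 0.21, adjusted p = 2e-15). (+)-JQ1 left it without a call (-0.44 ± 0.18, adjusted p = 0.17), and the treatments differed (1.80 ± 0.21, adjusted p = 6.2e-11). A member 9.14 kb from Serpina3g, a protease inhibitor gene, had 161, 153 and 220 counts in LPS, 82.5, 68.9 and 52.6 in LPS_JQ1 and 34.5, 36.0 and 48.5 in LPS_IL10 (-2.15 ± 0.22, adjusted p = 1.2e-13). The chr5:16337750-16338602 member had 363, 275 and 324 in LPS, 171, 131 and 98.7 in LPS_JQ1 and 98.6, 86.3 and 63.2 in LPS_IL10 (-1.96 ± 0.18, adjusted p = 2.7e-15).

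Members higher with IL-10 under LPS were fewer, and the one that rose most also rose without LPS. A member 19.1 kb from Il4ra, the gene of the interleukin 4 receptor alpha chain, and 19.7 kb from Il21r, at chr7:132726120-132728297, had 130, 197 and 171 counts in Unstimulated and 1030, 1050 and 1120 in IL10 (2.67 ± 0.15, adjusted p = 3.6e-28). Under LPS it had 264, 254 and 274 without treatment and 1320, 1180 and 893 with IL-10 (2.10 ± 0.14, adjusted p = 5e-23), whereas (+)-JQ1 gave 255, 189 and 225 (-0.25 ± 0.15, adjusted p = 0.40). A member 21.4 kb from Sos1, a Ras exchange factor gene, had 34.1, 49.7 and 48.5 in Unstimulated and 36.4, 38.6 and 34.9 in LPS, but 149, 134 and 132 in LPS_IL10 (1.91 ± 0.22, adjusted p = 4e-11). In IL10 without LPS it had 78.8, 56.8 and 53.1, above the Unstimulated libraries but without a call (adjusted p = 0.16).

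**Figure D4:**
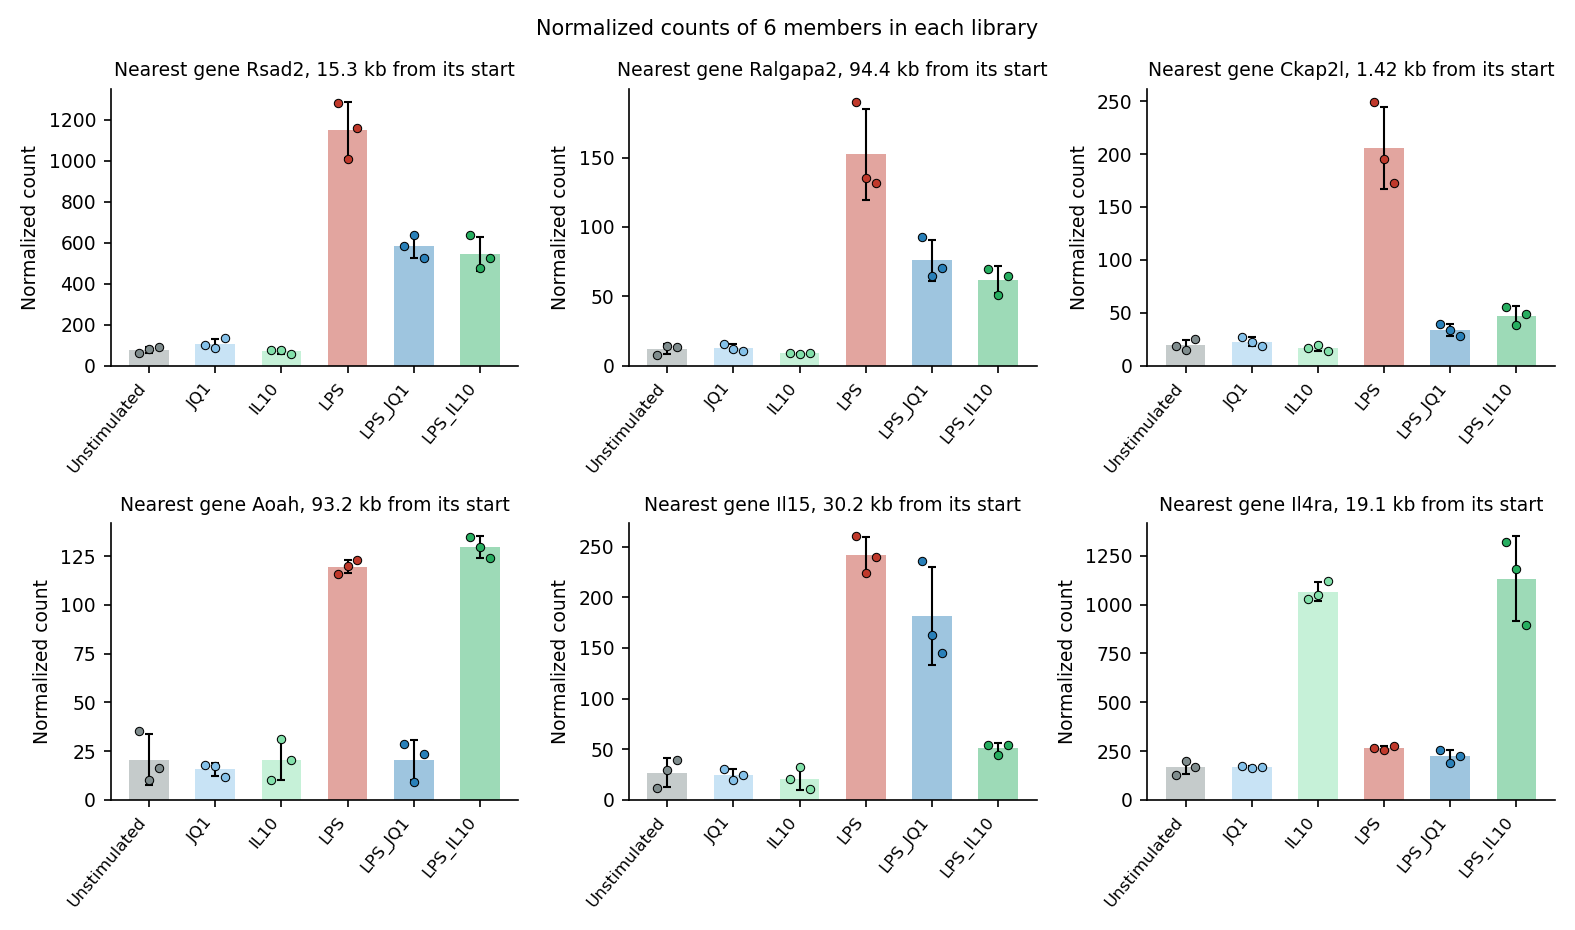
Normalized counts (vertical axes) of 6 named members in the 6 groups (horizontal axes); points are the 3 libraries, bars are means and error bars are SD. The Rsad2, Ralgapa2 and Ckap2l members fall with both treatments, the Aoah member falls with (+)-JQ1 alone (28.9, 9.26 and 23.4 in LPS_JQ1), the Il15 member falls mainly with IL-10, and the Il4ra member rises with IL-10 with or without LPS.

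Whether the response to LPS itself differed with treatment was tested as an interaction. With (+)-JQ1, 53 members had a larger and 222 (1.89%) a smaller log2 response, against 0.649% and 3.19% of all peaks and 0.658% and 1.33% of distal peaks. With IL-10, 200 members (1.70%) had a larger and 743 (6.33%) a smaller response, against 2.01% and 5.9% of all peaks and 2.15% and 3.33% of distal peaks. Promoter peaks take a large part of the calls over all peaks (11.2% and 16.9% smaller), so the distal shares are the nearer background. These counts rested on the scaling and on replicate 2: with total counts 208 members were larger and 72 smaller for (+)-JQ1 (74.3% larger among the called in place of 19.3%), 580 and 383 for IL-10 (60.2% in place of 21.2%), and without replicate 2 the smaller responses numbered 7 and 150. The member median lay below the distal median by 0.08 for (+)-JQ1 and 0.14 for IL-10 under both scalings.

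Without LPS, treatment moved members about as often as other peaks. In JQ1 against Unstimulated 586 members (4.99%) were higher and 321 (2.73%) lower, while 7.85% of all peaks were higher and 3.15% lower, and 4.34% and 3.39% of distal peaks. In IL10 against Unstimulated 618 (5.26%) were higher and 364 (3.10%) lower, while 5.16% of all peaks were higher and 3.5% lower. Total-count scaling reversed the balance, to 122 higher and 1462 lower for (+)-JQ1 (7.70% higher among the called in place of 64.6%) and 213 and 907 for IL-10 (19.0% in place of 62.9%), and it shifted the all-peak median log2 fold change from -0.09 to -0.37 and from -0.05 to -0.26. Relative to all distal peaks the member median was 0.03 to 0.04 higher in each comparison under both scalings. Without replicate 2 the 4 counts were 150, 52, 136 and 41, and without replicate 1 they were 364, 134, 365 and 77.

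Named members that moved without LPS are given here. A member 109 kb from Ahr, the gene of the aryl hydrocarbon receptor, had 37.8, 39.4 and 38.2 counts in Unstimulated, 106, 92.4 and 85.7 in JQ1 and 203, 192 and 182 in IL10, with no overlap among the groups (1.29 ± 0.20 and 2.32 ± 0.19, adjusted p = 9e-07 and 8.1e-18). An intronic member of Socs6 rose with (+)-JQ1 from 40.4, 57.0 and 56.8 to 100, 121 and 167 (1.33 ± 0.22). Falls with (+)-JQ1 were named in introns of Arhgap22 (-1.45 ± 0.23) and Celf2 (-1.29 ± 0.31), and falls with IL-10 in an intron of Papss1 (-1.12 ± 0.23) and 50.9 kb from Il1r1, the interleukin 1 receptor gene (-1.08 ± 0.26). The Celf2 and Il1r1 falls lost their calls without replicate 2 (-1.27 and -1.12). The Il1r1 member went the other way under LPS: 82.3, 68.7 and 68.7 counts in LPS and 137, 114 and 132 in LPS_IL10 (0.80 ± 0.20, adjusted p = 0.0032). The Celf2 member had 102, 112 and 93.4 in LPS and 24.9, 31.7 and 23.4 in LPS_IL10 (-1.95 ± 0.26, adjusted p = 3.3e-09).

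Interferon genes were examined through a list of 92 genes by role, of which 89 were annotated and 62 had members within 25 kb of a start, 93 members in all. After LPS 62 of these members (66.7%) were higher and 0 lower, with a median log2 fold change of 1.14, against 19.1% of all members. With (+)-JQ1 30 (32.3%) were lower and 0 higher, and with IL-10 30 were lower and 1 higher. The 982 other distal peaks within 25 kb of the same genes, which lacked the element, were higher after LPS in 53.4%, lower with (+)-JQ1 in 29.1% and lower with IL-10 in 25.5%. Over all peaks tested the shares were 11.7%, 3.49% and 4.51%. In LPS_JQ1 against LPS_IL10, 6.62% of the 982 peaks were higher and 12.3% lower, against 3.43% and 4.68% of all peaks. The counts by role below are to be read beside these shares. Peaks of 1 locus are not independent of each other.

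Sensors and antiviral effectors, which detect viral nucleic acid or block viral growth, held 34 members, of which 25 were higher after LPS, 16 (47.1%) lower with (+)-JQ1 and 9 (26.5%) lower with IL-10. In the direct comparison 5 of the 34 were lower in LPS_JQ1 than in LPS_IL10 and 0 were higher. The nearest member of Rsad2 and Cmpk2, an antiviral pair of neighbours, had 144, 132 and 157 counts in Unstimulated, 556, 533 and 476 in LPS, 469, 480 and 471 in LPS_JQ1 and 479, 298 and 343 in LPS_IL10, so neither treatment passed the threshold there (-0.14 and -0.48), unlike at the Rsad2 member printed above. At Eif2ak2, the gene of the double-stranded RNA kinase PKR, counts of 502, 498 and 469 in LPS fell to 292, 321 and 339 in LPS_JQ1 (-0.62 ± 0.13, adjusted p = 0.00078) and were 369, 319 and 377 in LPS_IL10 (-0.46 ± 0.13). At Mx1, a dynamin-like antiviral GTPase gene, counts were 290, 366 and 397 in LPS, 197, 232 and 187 in LPS_JQ1 and 213, 154 and 195 in LPS_IL10 (-0.77 ± 0.15 and -0.90 ± 0.15).

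GTPases of the guanylate-binding and immunity-related families act against intracellular pathogens. Of their 18 members 14 were higher after LPS, 6 were lower with (+)-JQ1 and 10 (55.6%) lower with IL-10, and in the direct comparison 4 were higher and 3 lower in LPS_JQ1. The Gbp2 member printed above had 31.5, 30.0 and 30.0 counts in Unstimulated, 353, 323 and 352 in LPS, 295, 249 and 271 in LPS_JQ1 and 171, 108 and 115 in LPS_IL10. (+)-JQ1 left it without a call (-0.34 ± 0.15, adjusted p = 0.19), IL-10 lowered it (-1.38 ± 0.16, adjusted p = 1.7e-11), and the treatments differed (1.04 ± 0.16, adjusted p = 3.2e-07). The Gbp7 member, 2.52 kb from the start, had 218, 207 and 231 in LPS, 194, 109 and 91.4 in LPS_JQ1 and 105, 68.8 and 78.8 in LPS_IL10 (-0.78 ± 0.19 and -1.37 ± 0.19). At Gbp5 the changes were -0.22 ± 0.19 and -1.08 ± 0.20, and the treatments differed (0.86 ± 0.20, adjusted p = 0.0019). The Gbp genes described here, Gbp2, Gbp5 and Gbp7, are close paralogs in 1 cluster, so reads shared between copies may be uncertain.

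Among cytokines, chemokines and surface proteins, 13 of 20 members were higher after LPS, 5 lower with (+)-JQ1, and 7 lower and 1 higher with IL-10. The exception was the member beside Ccl2 and Ccl7, genes of monocyte-attracting chemokines, with 178, 194 and 196 counts in LPS, 237, 193 and 213 in LPS_JQ1 and 323, 331 and 348 in LPS_IL10 (0.82 ± 0.15, adjusted p = 1.9e-05). At Ccl5, a chemokine gene of the type I response, 17.7, 34.2 and 25.8 counts in Unstimulated became 218, 155 and 233 in LPS (2.94 ± 0.23) and 139, 127 and 139 in LPS_IL10 (-0.58 ± 0.18, adjusted p = 0.026). The Cd40 member had 471, 478 and 481 in LPS and 382, 381 and 391 in LPS_IL10, a log2 change of -0.31 that missed the threshold.

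Antigen presentation had 4 members, 3 higher after LPS, 1 lower with (+)-JQ1 and 2 lower with IL-10. The member within 25 kb of Tap1, Tap2, Psmb8 and Psmb9, genes of peptide transport and the immunoproteasome, went from 94.6, 91.1 and 104 counts to 223, 222 and 235 with LPS, and to 140, 161 and 172 with (+)-JQ1 and 132, 102 and 155 with IL-10 (-0.51 ± 0.15 and -0.80 ± 0.16). The member 1.67 kb from B2m rose with LPS (1.80 ± 0.20) and passed no threshold with either treatment.

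Receptors of interferon and their kinases relay the signal to the nucleus. Of their 11 members 4 were higher after LPS, 1 was lower with (+)-JQ1 and 1 with IL-10. The member listed for Ifnar2, a gene for a chain of the type I interferon receptor, lay 22.3 kb from the Ifnar2 start. The start of Il10rb was nearer, at 7.59 kb. This member had 560 to 861 counts in Unstimulated and 847 to 980 in LPS, which overlapped (log2 fold change 0.42). The Jak1 member had 181 to 209 and 193 to 202. The Tyk2 member rose from 246, 221 and 324 to 548, 441 and 498 (0.91 ± 0.14) and was higher in LPS_JQ1 than in LPS_IL10 (0.64 ± 0.14, adjusted p = 0.00058).

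Of 11 listed transcription factor genes only 3 had members, of which only that near Irf7, the IRF that amplifies interferon alpha genes, was called. It lay in an intron of Phrf1, 14.3 kb from the Irf7 start, and had 36.6, 29.0 and 18.6 counts in Unstimulated, 84.9, 77.2 and 92.3 in LPS, 42.0, 44.2 and 45.3 in LPS_JQ1 and 41.2, 29.5 and 45.9 in LPS_IL10, with every treated library below every LPS library (-0.94 ± 0.24 and -1.11 ± 0.24). Feedback inhibitors had 3 members, 2 higher after LPS and 0 lowered by either treatment. The member of Socs3, a STAT3 target that blocks cytokine receptors, was the only one of them that IL-10 raised without LPS: 66.9, 68.3 and 46.5 counts in Unstimulated and 108, 146 and 132 in IL10 (1.09 ± 0.19, adjusted p = 3.2e-05). Its LPS counts were 263, 263 and 298 (2.18 ± 0.18).

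**Figure D5:**
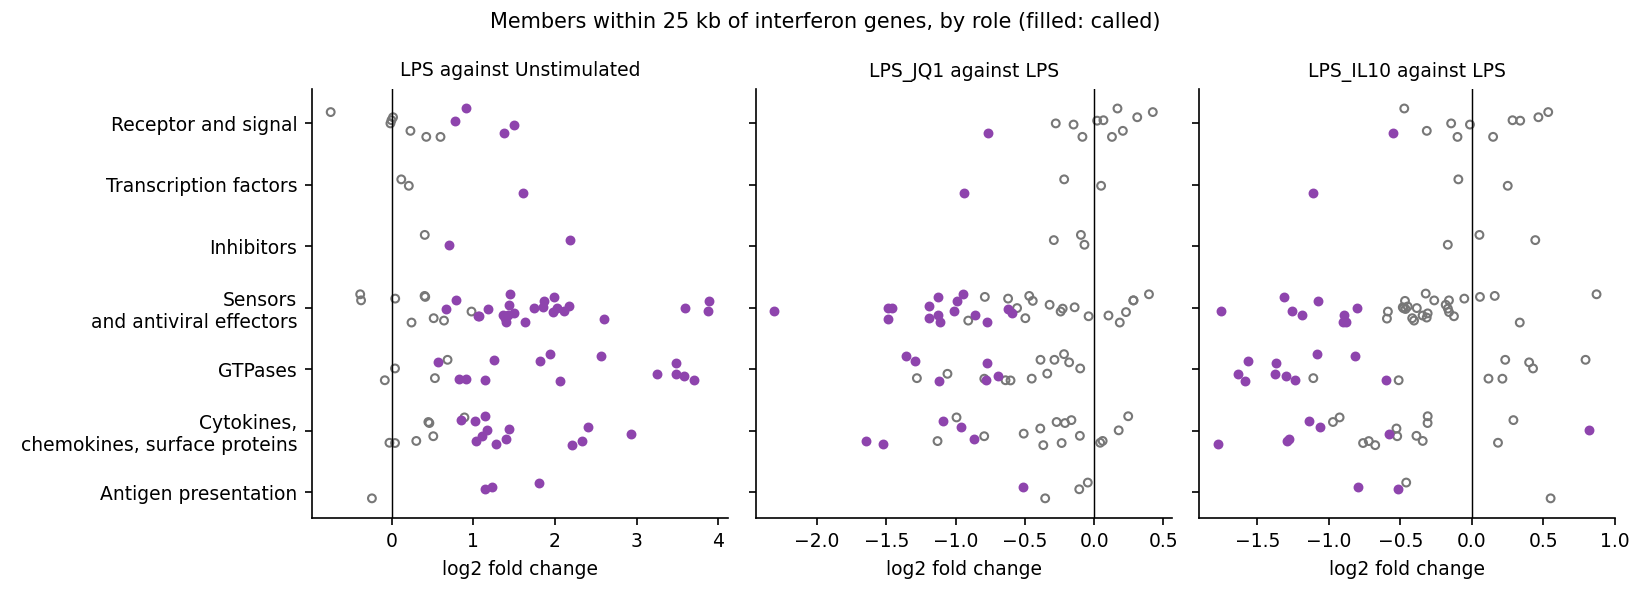
Log2 fold change (horizontal axes) of the 93 members within 25 kb of listed interferon genes, by role (vertical axis, points spread for legibility), in 3 comparisons; filled points were called. After LPS 62 are called higher and 0 lower; 16 of 34 members at sensors and antiviral effectors are called lower with (+)-JQ1 and 9 with IL-10, whereas 6 and 10 of 18 are at GTPases.

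Sites of other factors in the same windows went with different shares. A kappaB site, bound by NF-kappaB, was present in 7.50% of members and 8.74% of distal peaks without the element, and an AP-1 site (TGACTCA or TGAGTCA) in 13.1% and 13.6%. Among members, 25.1% of those with a kappaB site and 24.0% of those with an AP-1 site were higher after LPS, against 14.3% and 14.1% of distal peaks that held the same site without the element. With the kappaB site 14.6% of members were lower in LPS_IL10 and 7.60% lower in LPS_JQ1, and with the AP-1 site 10.4% and 3.78%. All members gave 9.93% and 4.80%. Without the element, distal peaks with the kappaB site gave 6.15% and 4.54%, and those with the AP-1 site 4.67% and 3.33%. The ETS-IRF composite GGAANNGAAA was present in 7.17% of members and 5.88% of other distal peaks, and members with it were higher after LPS in 24.7% and lower with IL-10 in 15.2%. A PU.1 site (GAGGAAGT, 7.18% and 6.97%) gave 16.2%, and the STAT motif TTCNNNGAA (14.8% and 14.6%) gave 21.8%. The share of all members higher after LPS was 19.1%. Motifs were searched on both strands, the composite can share bases with the element, and a match was not taken as evidence of binding.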

How the data were processed

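ATAC-seq of 18 libraries (6 groups, 3 each) was analysed. The authors deposited raw read counts per peak for promoter and distal peaks. The submitters' processing notes name Bowtie2, MACS2, ChIPseeker and mm9; the counting tool is not given in the sources used here, nor whether peak starts count from 0 or 1. 6 count columns that match no sample here were not used.

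Counts were fitted in edgeR 4.0.16 (R 4.3.3, TMM, quasi-likelihood test) over all peaks and 6 groups, with Benjamini-Hochberg adjustment and 8 comparisons. Normalized counts are counts divided by the TMM-scaled library size and multiplied by the mean library size. Elements were searched in the mm9 sequence. Named members had a mean of at least 50 normalized counts, one direction in all 3 pairs and the largest changes (6 rises and 3 falls for LPS; 4 falls and 2 rises per treatment under LPS; 2 and 2 without); for listed interferon genes, the nearest members with the most counts in each role. The Trim30a and Gm5464 repeats were chosen after their values were seen. Members and lists were chosen with earlier results of these data known.

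The labels call the samples matched; deviations from the group means correlated by 0.0054 on average over 45 pairs of libraries with the same number. DESeq2 1.42.0, other scalings and filters, a replicate block, lane and leaving out replicates were tried. Fits were tested on simulated data. Depth limits peaks with few counts.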

Additional observations from a re-analysis of the deposited data

Results flagged for a closer look

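The response to LPS differed with treatment, by a test of the interaction in edgeR, in the members counted here: with (+)-JQ1 it was larger in 53 and smaller in 222, and with IL-10 larger in 200 and smaller in 743. Over all peaks the shares were 0.649% and 3.19% with (+)-JQ1 and 2.01% and 5.9% with IL-10, beside 0.451% and 1.89%, and 1.70% and 6.33%, of members. Over all distal peaks, the nearer background, the shares were 0.658% and 1.33% with (+)-JQ1 and 2.15% and 3.33% with IL-10. Total-count scaling turned the balance, to 208 larger and 72 smaller with (+)-JQ1 and 580 and 383 with IL-10. Without replicate 2 the smaller responses of members numbered 7 with (+)-JQ1 and 150 with IL-10. Interaction log2 values with (+)-JQ1, where called in named members, were -1.46 at the Rsad2 member 15.3 kb from the start and -1.003 at the one 3.81 kb from it, -1.21 in the Gbp5 exon, -1.15 at chr5:16337750-16338602, -1.45 at Prkcq, 1.26 in Gpnmb, 1.53 at Ccdc83, -2.30 at Pydc3, -2.86 at Ckap2l, -2.19 and -1.22 in Aoah, -0.68 at Cd40 and -1.25 at Ccl5. Named members picked for the largest changes were chosen by contrasts that enter the interaction. Calls among them, with (+)-JQ1 or IL-10, were thus favoured in advance. A smaller response need not mean a lower level under LPS. At Cd40 mean counts were 216 in Unstimulated, 412 in JQ1, 477 in LPS and 565 in LPS_JQ1. At the Rsad2 member 3.81 kb from the start they were 144, 263, 522 and 473.

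With IL-10 the called values were -0.92 and -0.80 at the same Rsad2 members, -2.41 in the Gbp5 exon, -1.60 at chr5:16337750-16338602, -1.47 at Prkcq, 1.05 at Fnip2, -1.89 at Ckap2l, 1.41 at Sos1, -1.84 in Il15, -1.37 at Serpina3g, -1.12 in Socs6, -1.75 in Celf2, 1.88 at Il1r1, -0.91 in Tyk2, -1.35 at Irf7, -1.22 at Gbp2, -1.87 at the Gbp7 member 2.52 kb from the start, -0.91 at Cd40, -1.36 at Ccl5, -0.90 at Psmb9 and -1.03 at B2m.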

How the results depend on the processing

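Of 342 values of named members under the alternatives, 340 kept their direction and their side of the threshold and none reversed; Celf2 with (+)-JQ1 (-1.27) and Il1r1 with IL-10 (-1.12), both without LPS, lost their call without replicate 2. Of the summary values 194 stayed within the limits and 79 moved, and the cause was not tested. The replicate block moved no count by over 1.5 times; under the pairing 2245 members were higher after LPS, 567 lower with (+)-JQ1 and 1159 lower with IL-10. Total-count scaling gave 1659 lower after LPS, 122 higher and 1462 lower in JQ1, 213 and 907 in IL10, and interactions of 208 larger and 72 smaller for (+)-JQ1 and 580 and 383 for IL-10. Loess offsets gave 193 and 145 in JQ1, 251 and 132 in IL10, and 91 smaller for (+)-JQ1. A filter of 10 counts in every library gave 1454 higher after LPS, 717 lower with IL-10, 348 higher in JQ1, 369 in IL10 and 87 larger for (+)-JQ1. DESeq2 gave 192 lower in JQ1, interactions of 34 and 342 for (+)-JQ1 and 133 larger for IL-10. Distal peaks on their own gave 157 lower in JQ1, and 23 and 124 larger responses for (+)-JQ1 and IL-10. Leaving out 1 replicate in turn gave 1612 to 1962 higher and 444 to 668 lower after LPS, 47 to 153 and 248 to 471 for LPS_JQ1, 259 to 296 and 651 to 839 for LPS_IL10, 150 to 763 and 52 to 308 for JQ1, 136 to 798 and 41 to 320 for IL10, 243 to 451 and 276 to 391 for LPS_JQ1 against LPS_IL10, 1 to 64 and 7 to 276 for the interaction with (+)-JQ1 and 32 to 124 and 150 to 566 for that with IL-10. With the element within 100 bp, anywhere in the peak or followed by C, members higher after LPS were 21.4%, 20.4% and 24.6% and those lower with IL-10 12.2%, 8.84% and 14.4%; those lower with (+)-JQ1 were 5.93% anywhere and 6.41% with C. Alternatives for arrays and for 3 half-sites in phase with 2 to 5 copies were added after seeing the data: with the 10-count filter arrays gave 30, 18 and 29 calls (higher after LPS, lower with (+)-JQ1, lower with IL-10) and the in-phase members 82, 20 and 43, and without 1 replicate arrays gave 96 to 117, 15 to 25 and 76 to 87 and the in-phase members 99 to 121, 16 to 27 and 50 to 61. Peaks with few counts limit single arrays.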
